A study of Zea mays with 48 samples.

Results

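In maize roots under tunicamycin, the group means of 134 of 23753 genes passed from a near-silent level to a set higher one. They were chosen by measured values. With the level of a gene as its reads per 1000000 reads of the library (CPM), a gene belongs to the set if its mean over 3 libraries was below 1 CPM at 0 h and below 1 CPM in the 48 h mock, and 2 CPM or more at 1 or more of the 6 treatment times. Near-silent genes at 0 h and in the mock numbered 756 in all, of which 622 stayed under 2 CPM at every treatment time. The set spans 1 gene that reached 87.9 CPM and many that stopped just past the threshold. At the time of the highest mean, all 3 libraries were at 2 CPM or more in 30 of the 134. By the tests below, 50 members were called higher than 0 h at no time, a count that was not made over all genes.

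Tunicamycin is an antibiotic that blocks the first enzyme of N-linked glycosylation. Glycoproteins then fail to fold and collect in the endoplasmic reticulum (ER). Plant cells answer through the unfolded protein response, in which the ER membrane protein IRE1 splices the messenger RNA of the transcription factor bZIP60, and membrane-tethered bZIP factors are cut free and move to the nucleus. Genes of ER chaperones and of ER-associated degradation are classic targets, and a stress that is not resolved can end in cell death.

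The RNA came from roots of seedlings of the inbred line B73, described in the labels as 7 days old. All treated groups received tunicamycin at 5 µg/ml, for 0, 3, 6, 12, 24, 36 or 48 h, and 1 mock group was kept for 48 h. Each of the 8 groups held 3 libraries, numbered I, II and III, and the series states biological replicates, without saying which plants went into a library. The p-values below therefore measure the spread between these libraries. Whole roots were used, so more cells that hold a transcript and more transcript per cell cannot be told apart. The time of a library is taken from its library name. The sample titles give another time for 42 of 48 lane samples, in all 8 groups, and match for 3 each of 0 h and mock. Which of them is right was not tested, and by the titles 72 genes met the rule, 30 of them members. Only the 48 h group has a mock of its own age. The 3, 6, 12, 24 and 36 h groups differ from 0 h in both drug and elapsed time. Gene identifiers are not paired with names here, and 0 of 23753 matched a reference table of 49888 maize genes, so genes are given by identifier, with no function, position or sequence, and root markers could not be checked.

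Depth was 7701856 to 38577551 reads per library (median 24966395), so 1 CPM stands for 7.70 to 38.6 reads. The members held 0 to 67 reads over the 3 libraries of 0 h (median 33), 0 to 72 in the mock (median 43) and 71 to 4612 at the time of their highest mean. Libraries of a group were not evenly alike. A chi-square of the counts per degree of freedom was 2.18 to 42.9 between libraries I and II and 29.8 to 77.9 between either of them and library III. Between I and II it was 2.18 at 0 h, 3.14 at 3 h and 5.03 in the mock. The 42.9 belongs to 24 h, where I and III gave 44.6. In every group, libraries I and II were more alike than either was to III. The main tests counted them as separate libraries, and whether they are independent was not tested. At 24 h the lanes of library III differed by over 4-fold, after adding 0.5 CPM to each, for 15.3% of all genes, where other libraries had at most 1.36%. Library II of 24 h entered with 1 lane.

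The genes fell into an early group and a larger late one. The highest mean came at 3 h in 27 genes, at 6 h in 1 (Zm00001d002350) and at 12 h in 2 (Zm00001d048729 and Zm00001d028615). It came at 24, 36 and 48 h in 34, 48 and 22 genes. The genes highest at 6 and 12 h are named after their values were seen. The median member stood at 0.544 CPM at 0 h and 0.602 in the mock, and at 0.703, 0.801, 0.899, 1.60, 1.91 and 1.31 CPM at 3, 6, 12, 24, 36 and 48 h. By these group values, the set filled mainly between 12 and 36 h, and fewer members were on at the last time. The libraries differed in this course. At 6, 12, 24, 36 and 48 h, 11, 10, 17, 59 and 50 members were at 2 CPM or more in library I. Library II had 11, 12, 35, 60 and 36, and library III had 11, 45, 62, 43 and 20. Means of 2 CPM or more were found for 27, 12, 12, 50, 66 and 44 members at the 6 times. Counted by the first time at 2 CPM or more, the numbers were 27, 8, 9, 38, 45 and 7.

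**Figure D1:**
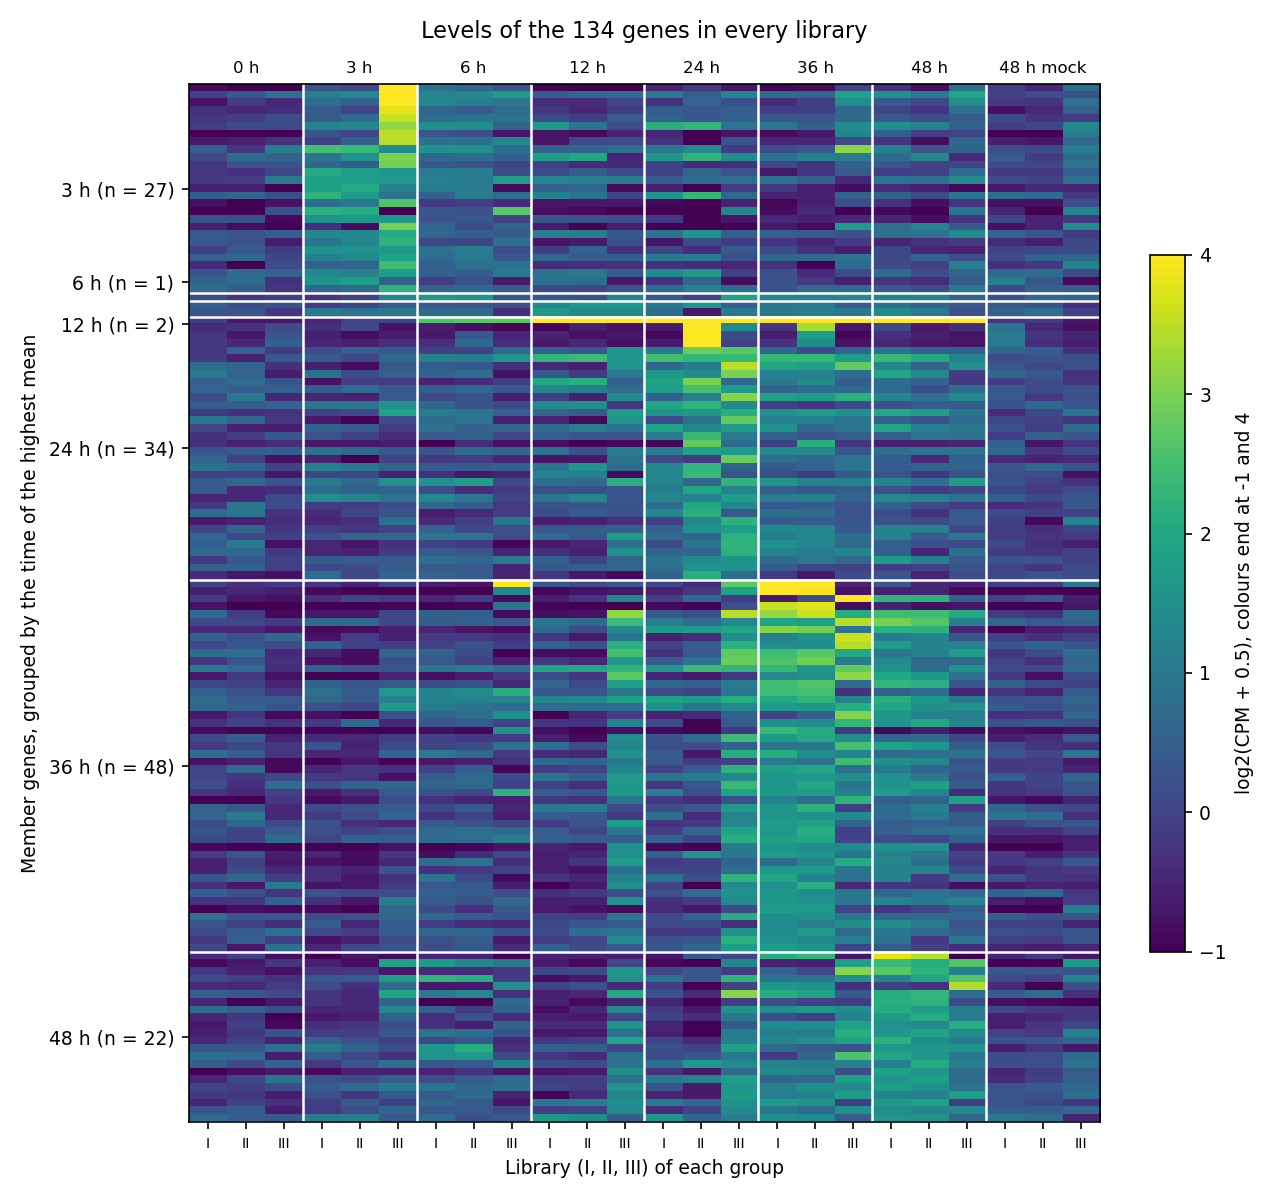
The level of each of the 134 genes (rows, grouped by the treatment time of the highest mean) in each of the 24 libraries (columns) as log2(CPM + 0.5), with the colour scale ending at -1 and 4. Columns of 0 h and mock are mostly dark because the rule held their group means below 1 CPM. It set no limit on single libraries, and 3 members were at 2 CPM or more in library III of the mock. The 3 h block is brightest in library III, and many genes of the 36 and 48 h blocks are already bright in library III of 12 h and 24 h.

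Most members were on for 1 time and at a low level. A mean of 2 CPM or more was held at a single treatment time by 82 genes, at 2 times by 35, at 3 times by 11 and at 4 or more by 6. At 48 h of tunicamycin, 47 members were below 1 CPM again and 44 were at 2 or more. The highest mean had a median of 2.66 CPM (2.00 to 87.9), with 85 genes under 3 CPM, 17 at 5 or more, 4 at 10 or more and 2 at 20 or more. At the edge of the rule, the 3 weakest members had highest means of 2.00, 2.01 and 2.02 CPM, and the 3 genes just outside had 1.98, 1.99 and 1.99 CPM. For the baseline limit, the higher of the means at 0 h and in the mock was 0.997 and 0.999 CPM in the last members inside and 1.002 and 1.003 CPM in the first genes outside.

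Near-silent genes also crossed the same limits without the drug. Among the 1128 genes below 1 CPM at 0 h, 71 were at 2 CPM or more in the 48 h mock, where 77, 96, 41, 110, 155 and 145 were at the treatment times of 3, 6, 12, 24, 36 and 48 h. The mock count lies within the range of the treatment times, above 12 h and below 3 h. In the opposite direction, 12 genes were at 2 CPM or more at 0 h or in the mock and below 1 CPM at all 6 treatment times, and 0 were at 2 or more in both.

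Zm00001d049068 had by far the highest mean of the set, and its rise was present in every library. In the order of libraries I, II and III, it stood at 0.451, 0.124 and 0.123 CPM before treatment, 0.341, 0.392 and 0.129 CPM in the mock, and 0.224, 0.50 and 0.542 CPM at 3 h. At 6 h they held 5.57, 5.96 and 5.97 CPM, and at 12 h 93.6, 87.1 and 34.6 CPM. The gene was therefore at baseline at 3 h, above it in all libraries at 6 h, and higher again in every library at 12 h, with library III lowest. The values were 108, 102 and 53.9 CPM at 24 h, 51.6, 43.5 and 75.5 CPM at 36 h, and 64.0, 48.8 and 19.6 CPM at 48 h. No library from 6 h on overlapped a library of 0 h, 3 h or the mock. Between 3 and 12 h the gene rose, with a log2 fold change of 7.36 (SE 0.59; adjusted p = 8.75e-07, edgeR, quasi-likelihood, Benjamini-Hochberg over all genes). Between 12 and 48 h the log2 difference was -0.76 (SE 0.41, adjusted p = 0.28, edgeR), which did not pass. With a recovered length of 887 bp, its highest mean was 99.1 RPKM, against a median of 5.79 for the highest treatment mean of all genes.

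Zm00001d023343 had the next highest mean, but in a pattern that split by library. At 36 h its libraries I, II and III held 40.3, 39.8 and 0.209 CPM. At 6 and 24 h, library III instead held 14.9 and 6.25 CPM, where libraries I and II held 0.164 and 0.104 CPM and 0.551 and 0.260 CPM. It was back at 0.755, 0.246 and 0.178 CPM at 48 h, and at 0.426, 0.432 and 1.46 CPM in the mock. Libraries I and II were thus high at 36 h alone, and library III at 6 and 24 h and not at 36 h.

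Besides the genes with the highest means, the members of at least 5 CPM with the largest ratio of their highest mean to that at 48 h were Zm00001d017032 (69.6) and Zm00001d044686 (67.0), and Zm00001d023343 had a ratio of 68.1. Zm00001d017032 held 15.4, 14.8 and 0.0896 CPM at 36 h in libraries I, II and III, with 1.87 CPM in library III at 6 h and 3.25 at 24 h. Zm00001d044686 held 11.5, 12.9 and 0.0597 CPM at 36 h, with 1.39 and 0.661 CPM in library III at 6 and 24 h. In every other library, both were at 0.390 CPM or less. Zm00001d017032 had 0 reads in all 3 mock libraries, where 3 reads in a library would be 0.118 to 0.129 CPM. At 36 h against 0 h the 3 genes were called higher (edgeR adjusted p = 0.0308 for Zm00001d023343, 0.0363 for Zm00001d017032 and 0.0137 for Zm00001d044686), a contrast the rule itself used. The log2 fold change was 5.99 in Zm00001d023343 (5.58 to 6.61 over the alternatives) and 5.60 in Zm00001d017032 (5.16 to 6.18), and none is given for Zm00001d044686, whose 0 h libraries held 2, 0 and 0 reads. Over the alternatives with a p, their adjusted p-values ran from 0.017 to 0.304, 0.0198 to 0.334 and 0.00468 to 0.254, highest with libraries I and II summed into 1 library.

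**Figure D2:**
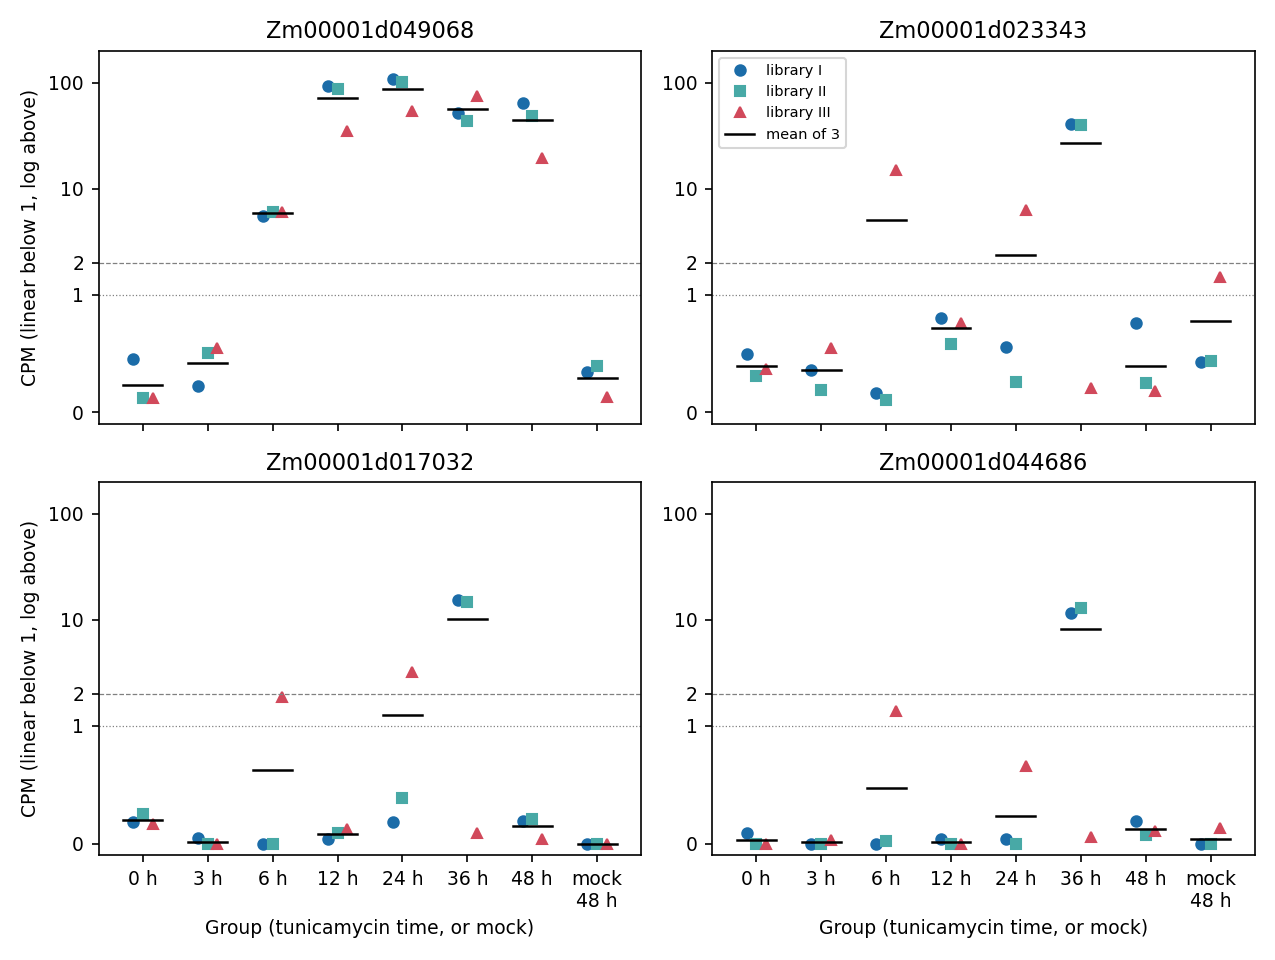
CPM of the 4 genes named by rule in each library (symbols by library number) and the mean of 3 (bars), on an axis that is linear below 1 and logarithmic above, with lines at 1 and 2 CPM. Zm00001d049068 is high in all libraries from 6 h on, while the other 3 genes are above 10 CPM in libraries I and II at 36 h alone. In library III they are higher at 6 and 24 h than at 36 h, though Zm00001d017032 at 6 h and Zm00001d044686 at both times stay below 2 CPM.

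At the time of the highest mean, all 3 libraries were at 2 CPM or more in 30 of the 134 genes, 2 libraries in 61 and 1 library in 43. All 3 libraries lay above all 6 libraries of 0 h and mock in 82 members. Among all genes, 18.7% had their 3 libraries at the highest treatment time above those 6, and since the rule used these values, nothing is read from the difference. A single library held over 70% of the summed CPM of the 3 in 23 members, and it was library III in 19 of them, library II in 4 and library I in 0. Of the 17 genes with a highest mean of 5 CPM or more, 3 had all libraries at 2 or more and 11 had a library below 1.

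**Figure D3:**
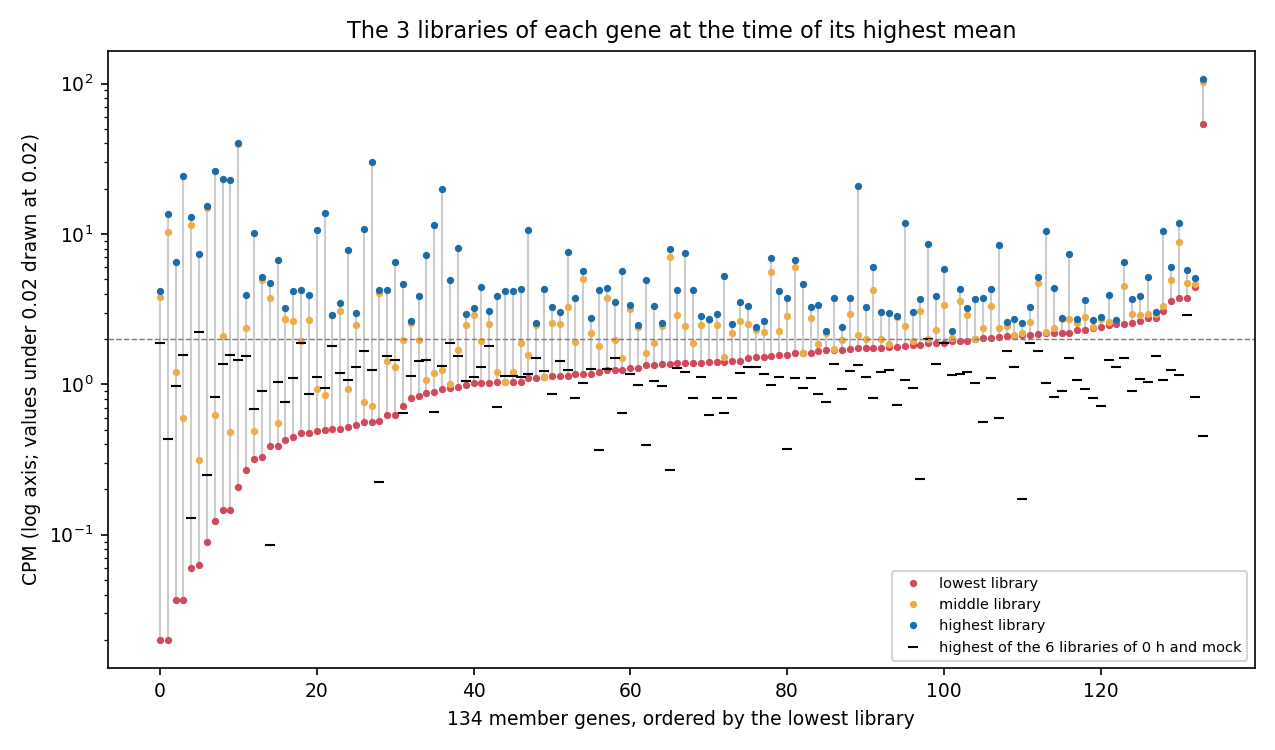
The lowest, middle and highest library of each of the 134 genes at the time of its highest mean, in CPM on a log axis, with the highest of the 6 libraries of 0 h and mock as a dash and a line at 2 CPM. Only the 30 genes at the right edge have all 3 points at or above the line, and the genes at the left edge are carried by 1 or 2 libraries.

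The thresholds were met library by library, with all 6 libraries of 0 h and mock below 1 CPM and all 3 of a treatment time at 2 or more, by 12 genes. By the time of their highest mean, 3, 0, 1, 2, 5 and 1 of them belonged to 3, 6, 12, 24, 36 and 48 h. Apart from Zm00001d049068, their highest means were 2.29 to 5.45 CPM. The following 3, picked after their values were seen, show the time courses. Zm00001d046491 held 2.41, 2.38 and 2.68 CPM at 3 h, 0.451, 0.807 and 0.409 CPM at 0 h, and 0.566, 0.211 and 0.178 CPM at 48 h, an early level that was gone at the last time. Zm00001d024208 held 2.57, 2.18 and 2.12 CPM at 36 h, and 1, 0 and 0 reads at 0 h. At 12 h its library III alone was at 2 CPM or more, with 0.208, 0.134 and 2.33 CPM in the 3 libraries. Zm00001d036936 was highest at 24 h, with means of 0.470, 0.852, 1.99, 3.96, 4.70, 3.98 and 3.36 CPM from 0 h through the 6 treatment times, and 0.663 CPM in the mock.

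The 27 genes highest at 3 h were carried largely by library III. Their median was 0.548, 2.87, 1.16 and 0.628 CPM at 0, 3, 6 and 12 h, and it stayed between 0.641 and 0.731 CPM from 24 to 48 h and in the mock. At 3 h the median member stood at 1.74 CPM in library I, 2.00 in II and 4.27 in III. Library III was the highest of the 3 in 19 of the 27 genes and held over 70% of the sum in 10, and 10 genes were at 2 CPM or more in both I and II. Zm00001d050093, picked after its values were seen, is the extreme case: 0.715, 0.563 and 30.3 CPM at 3 h, with 1, 0 and 0 reads at 0 h and again at 12 h.

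The 34 genes highest at 24 h had medians of 0.622 CPM before treatment and 0.930, 2.56, 1.49 and 0.940 CPM at 12, 24, 36 and 48 h. At 24 h their median was 1.52 CPM in library I, 3.31 in II and 2.83 in III. A single library was at 2 CPM or more in 20 of the 34. Without the 24 h group, 110 genes met the rule.

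The 70 genes highest at 36 or 48 h had medians of the group means that were higher at each time up to 36 h and lower at 48 h than at 36 h. From 0 h through the 6 treatment times, their median was 0.518, 0.530, 0.702, 0.899, 1.14, 2.42 and 2.05 CPM, with 0.557 in the mock. At 12 h, however, these genes stood at a median of 0.399 and 0.379 CPM in libraries I and II and 1.91 in library III. Libraries I and II thus lay below the 0 h median, and library III between the medians of 24 and 36 h. In the groups of the highest mean, library III was the lower one: the 48 genes of 36 h had medians of 2.75, 2.69 and 1.63 CPM in library I, II and III, and the 22 genes of 48 h had 2.77, 2.98 and 1.64.

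Over all members, library III stood above I and II in several groups. The median member held 0.559, 0.563 and 0.842 CPM in library I, II and III at 3 h, 0.520, 0.535 and 1.27 at 12 h, and 0.661, 0.909 and 1.95 at 24 h. Library III was the highest of the 3 in 85, 88 and 84 of the 134 members at those times and in 72 in the mock. At 0 h library III was the highest in 37 members, and it had the lowest median of the 3 at 0, 6, 36 and 48 h. The part that this spread between libraries has in the members' levels was not tested.

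Each library number was left out in turn to read the genes in libraries that did not choose them. With libraries I and II of every group, the rule chose 196 genes, and in library III of the same treatment time 59 of them (30.1%) were at 2 CPM or more. Genes near-silent by the same libraries but not chosen were at 2 or more in 33 of 657 cases (5.02%). With library II left out, 54 of 128 chosen genes (42.2%) reached 2 CPM in it, against 62 of 599 not chosen (10.4%). With library I left out the figures were 48 of 154 (31.2%) and 27 of 571 (4.73%). Chosen genes reached the level more often than the others in each library left out, but most of them did not. The others were by rule the lower ones in the libraries used, so nothing is read from the difference. With I or II left out, its more alike counterpart also stayed in the choice. With I, II and III left out, 78.6%, 78.9% and 53.6% of chosen genes lay above 0 h and mock of the left-out number. Of the genes not chosen, 60.4%, 61.8% and 41.6% did. The left-out library met the whole rule, baseline included, for 30, 38 and 13 genes with I, II and III left out.

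The 2 lanes gave a second reading. The rule chose 229 genes from lane 6 alone and 137 from lane 7 alone, and 74 from both, which is 32.3% of the first list and 54.0% of the second. Of the 134 members, 68 met the rule on each lane. In library III of 24 h, whose lane 6 held 2020493 reads, 25 members differed over 4-fold between the lanes, 15 higher on lane 6 and 10 on lane 7. That is 18.7% of the members, where 15.3% of all genes differed so.

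A group of 4 members, found after their values were seen, was high on single lanes only. Zm00001d004058, Zm00001d040879, Zm00001d000417 and Zm00001d000272 held 23.0, 24.1, 23.4 and 6.49 CPM on the single lane of 24 h library II. In library II of 36 h they held 11.9, 16.8, 53.1 and 20.97 CPM on lane 7 and 0.322, 0.107, 0.269 and 0.322 CPM on lane 6. They were high in a mock lane too, with 6.55, 6.02, 3.72 and 3.36 CPM on lane 6 of mock library I and 0.000, 0.169, 0.618 and 0.225 CPM on lane 7. These lanes held 7701856, 3862586 and 5649159 reads. Unlike in the other groups, the lanes of a mock library carry different sample names in the labels. Whether they came from the same preparation was not tested. The 4 genes were thus high together on the same lanes, and libraries I and III of 24 h were at 0.147 CPM or less and at 0.481 to 2.10 CPM. In that library III the lanes differed too. Its lane 6, with 2020493 reads, held 8.91, 6.43 and 1.98 CPM of Zm00001d000417, Zm00001d000272 and Zm00001d004058. Lane 7 held 1.16, 0.479 and 0.274 CPM of them. Their 24 h means were 7.87, 8.26, 8.54 and 2.58 CPM, and only Zm00001d000417 also passed 2 CPM at 36 h (3.27 CPM, against 0.913, 1.06 and 1.56 in the others). The place of the other 3 among the members thus rests on library II of 24 h. Without library II of 24 h and the 5 shallowest lane samples, 135 genes met the rule, of which 113 are members.

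**Figure D4:**
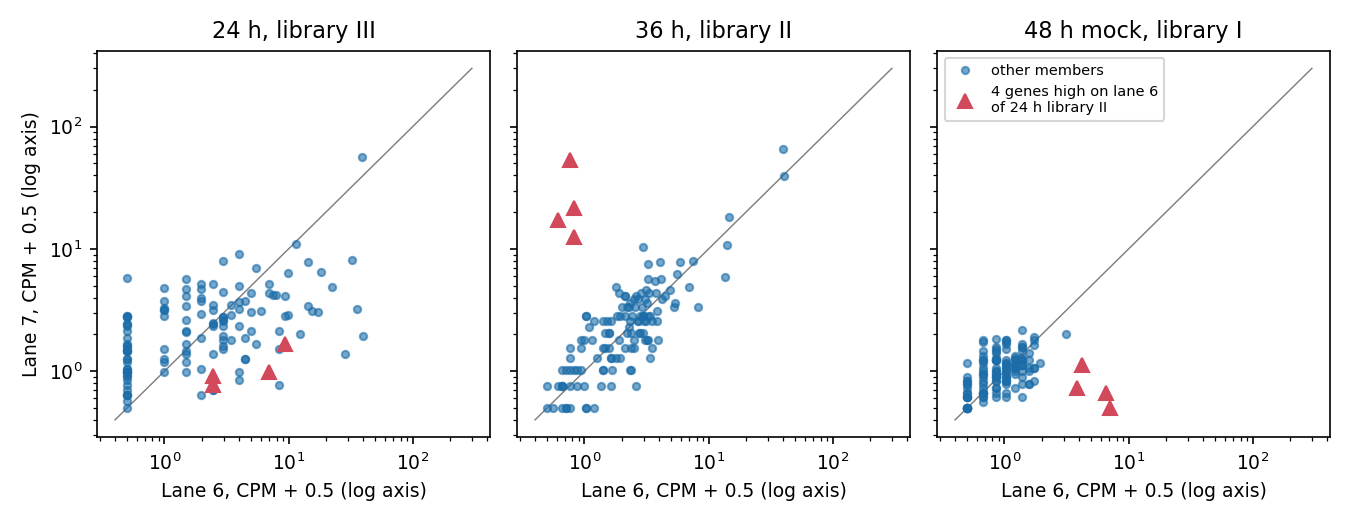
Level of each member on lane 7 against lane 6 of 1 library, as CPM + 0.5 on log axes, for 24 h library III, 36 h library II and mock library I, with the line of equal levels. The 4 genes high on the single lane of 24 h library II (triangles) lie off the line on lane 7 of 36 h library II and on lane 6 of mock library I, while the points of 24 h library III scatter widely.

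The tests against 0 h used the contrasts that chose the members, so their counts are a description. By edgeR (quasi-likelihood, Benjamini-Hochberg adjusted p below 0.05), 22 members were higher at 3 h, as were 8.28% of all genes. There were 12 members at 6 h (14.1% of all genes), 7 at 12 h (0.914%) and 28 at 24 h (10%). At 36 h 36 members were higher (4.19% of all genes), and 36 again by 48 h (12.1%). At 6 h, 1 member was lower (13.8% of all genes), Zm00001d008453, with 0.164, 0.259 and 0.418 CPM. In all, 84 members were called higher than 0 h at 1 or more times and 12 at 3 or more. At none were 50, although every one had passed the CPM thresholds. Calls over several times were not counted for all genes, so nothing is read from these counts. The median log2 fold change of the members was 0.44, 0.52, 0.61, 1.44, 1.69 and 1.21 at the 6 times, where that of all genes was 0.01 to 0.05. Without library III of the treated group, the members' median was 0.15 at 3 h, 0.24 at 12 h and 0.71 at 24 h. These comparisons share the 0 h libraries, and the counts rest on few of them. With libraries I and II of every group summed into 1 library, the members called higher at the 6 times were 0, 1, 1, 4, 1 and 1. Over all genes, the higher calls were 1966, 3342, 217, 2375, 996 and 2882 in the main fit. In the summed fit they were 39, 13, 9, 128, 5 and 33, so the loss was not particular to the members. When library I of 0 h was left out, the members called at the 6 times were 14, 3, 3, 15, 12 and 21, and when library II was, they were 13, 4, 2, 16, 12 and 21. The higher calls over all genes were then 869, 1449, 99, 1246, 249 and 1210 without library I. Without library II they were 810, 1363, 94, 1191, 266 and 1137. Dropping library III of 0 h left 5 members for 6 h and 4 for 12 h, with 3926 and 699 of all genes higher. Dropping library III of 3 h left 8 members for that time, and dropping library II of 24 h left 16. Of all genes, 1082 and 1555 were then higher. For 6 h, 5 and 6 members were left when its own library I or II was dropped, and for 12 h, 2 and 3. The higher calls over all genes were then 1754 and 1779 for 6 h, and 101 and 117 for 12 h.

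At equal age, 48 h of tunicamycin against the 48 h mock, 5 members were called higher, by edgeR with adjusted p below 0.05, where 0.337% of all genes were called higher. Their median log2 fold change was 1.15, with 115 of 134 members above 0, and this contrast too was part of the choice. Besides Zm00001d049068 (log2 fold change 7.21, SE 0.61, adjusted p = 1.31e-06, edgeR), the calls were Zm00001d010385, Zm00001d029907, Zm00001d036936 and Zm00001d037694, named after their values were seen. Zm00001d037694 held 2.68, 2.68 and 2.53 CPM in library I, II and III at 48 h and 0.171, 0.353 and 0.129 CPM in the mock, with no overlap. It was also at 0.767, 0.745 and 1.31 CPM at 0 h, so the mock was the lower of its baselines. Zm00001d029907 held 4.15, 4.08 and 0.249 CPM at 48 h and 0.000, 0.157 and 0.214 CPM in the mock, and its library III lay just above the mock range. Zm00001d036936 held 4.60, 3.63 and 1.85 CPM against 0.597, 0.706 and 0.686 CPM, a log2 fold change of 2.32 (SE 0.40) with an edgeR adjusted p of 0.00764. Zm00001d010385 held 3.96, 2.61 and 1.57 CPM against 0.682, 0.706 and 1.07 CPM. When 1 library of 48 h was left out, in the order I, II, III, the count of 5 became 1, 2 and 14. Leaving out those of the mock in the same order gave 1, 1 and 3. Over all genes, the 80 higher calls became 32, 34 and 139 without a library of 48 h, and 34, 35 and 63 without one of the mock.

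In the mock against 0 h, 0 members were called higher (0.922% of all genes) and 0 lower (1.14%) by edgeR at adjusted p below 0.05. The rule limited the members' means to below 1 CPM in both groups. At an unadjusted p below 0.05, 7 members were higher and 3 lower, and DESeq2 called 2. The median log2 difference was 0.02 for the members and 0.02 for all genes.

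Treatment times were also set against each other, where the rule fixes no direction but needs 1 time to be high. At 12 h against 3 h, 8 members were called higher (1.84% of all genes) and 11 lower (1.68%), by edgeR with adjusted p below 0.05. All 11 lower genes had their highest mean at 3 h, and 10 of the 11 had library III as their highest at 3 h. The 8 higher genes had theirs at 12 h in 1 case, at 24 h in 3 and at 36 h in 4, with log2 fold changes of 2.01 to 7.36. The 19 calls became 4 without library III of 3 h, and 9, 10 and 12 when those of 12 h were dropped in the order I, II, III. Over all genes, the 437 higher and 398 lower calls became 182 and 139 without library III of 3 h. Without those of 12 h, in the same order, they were 199 and 112, 248 and 129, and 364 and 337.

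At 48 h against 12 h, 3 members were called higher (1.06% of all genes) and 0 lower (2.82%), by edgeR with adjusted p below 0.05. At an unadjusted p below 0.05 there were 22 and 5. The 3 genes, Zm00001d031351, Zm00001d041768 and Zm00001d054057, named after their values were seen, all had their highest mean at 48 h. Zm00001d031351 held 2.87, 3.77 and 1.57 CPM in library I, II and III at 48 h and 0.173, 0.134 and 0.551 CPM at 12 h, without overlap. Zm00001d041768 held 4.04, 4.23 and 0.570 CPM against 0.208, 0.0446 and 0.212 CPM. Zm00001d054057 held 13.6, 10.2 and 0.000 CPM against 0.208, 0.178 and 0.169 CPM, so its library III was below all of 12 h. The count of 3 became 26 when library III of 12 h was left out, 1 when that of 48 h was, and 0 when library I or II of either group was. Over all genes, the 252 higher and 669 lower calls became 1370 and 1788 without library III of 12 h. They became 74 and 167 without that of 48 h. Without library I or II of either group they were 8 to 63 and 37 to 205.

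**Figure D5:**
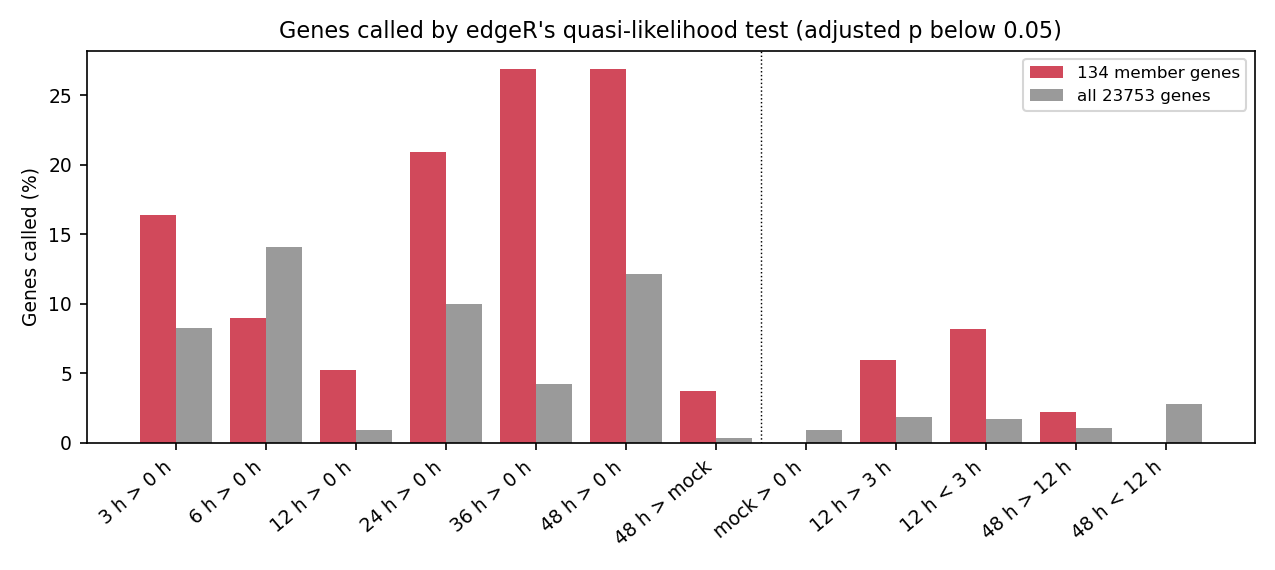
Percent of the 134 members (red) and of all 23753 genes (grey) called by edgeR's quasi-likelihood test at an adjusted p below 0.05, in 12 directions of 10 comparisons. Bars left of the dotted line stand for contrasts that chose the members. To the right of it, members were called in 0 to 11 of 134 cases.

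By median, the members were shorter than all genes together. The length of a gene, solved from the deposited RPKM and counts, had a median of 1357 bp in the 134 members (interquartile range 672 to 2632). It was 1539 bp in the 622 near-silent genes that were not members, and 3513 bp in all genes. Lengths ran up to 128402 bp over all genes. Whether they include introns was not tested, so they and the RPKM values may not be those of the transcripts. By the time of the highest mean, the median was 1080 bp in the 27 genes of 3 h, 1035 bp in the 34 of 24 h, 1357 bp in the 48 of 36 h and 2498 bp in the 22 of 48 h. The median length of the members was close to that of the other near-silent genes, and both lay below that of all genes. Since CPM does not divide by length, the threshold for on asks a higher level per length of a short gene. The baseline limit likewise lets a short gene pass at a higher level per length. The choice thus depended on length, and nothing is read from the shorter lengths. Per length, the highest treatment mean had a median of 2.23 RPKM in the members, 0.802 in the other near-silent genes and 5.79 in all genes. It ranged from 0.0962 to 99.1 RPKM in the members. The members were by rule higher in CPM than the other near-silent genes, so nothing is read from that difference.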

How the data were processed

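The authors' deposited table of counts holds whole reads per gene for 24 libraries, and a second deposited table holds RPKM per lane sample. Per the submitters' processing notes, the tools were STAR, featureCounts and edgeR. Not given in the sources used here: genome build, strand setting and the handling of reads shared by gene copies. Sample titles and library names disagree on the time of 42 of 48 lane samples, and groups follow the library names, which the count columns carry. Lane reads and gene lengths were recovered from RPKM together with the counts: 100% of reads and of lengths were whole within 0.01, and lane reads summed to the deposited counts. Lane 7 of 24 h library II was not analysed here. No gene has fewer than 152 reads in all, so genes silent throughout are not covered.

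CPM was the count divided by the column sum. Tests were run with edgeR 4.0.16 in R 4.3.3 (quasi-likelihood test, TMM, 1 model of 8 groups, Benjamini-Hochberg over 23753 genes, steps tested on simulated data), and edgeR's low-count filter removed 0 genes. Standard errors are the log2 fold change divided by the root of F. DESeq2 1.42.0, other scalings, thresholds and groupings, the library number as a block and left-out libraries were alternatives. The members and alternatives were chosen with earlier results of these data known. Genes named by rule are the 2 with the highest mean and, of the other members at 5 CPM or more, the 2 with the largest ratio of that mean to 48 h. Other names were chosen after their values were seen.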

Additional observations from a re-analysis of the deposited data

Results flagged for a closer look

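The level of Zm00001d049068 differed between 3 h and 12 h of treatment by the direct test of these times, which have no mock of their own age and whose means helped to choose the gene. The log2 difference was 7.36 (edgeR adjusted p = 8.75e-07), with all 3 libraries of 12 h above all 3 of 3 h.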

How the results depend on the processing

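The 134 genes became 26 with a baseline below 0.5 CPM, 17 with 5 CPM as the level of on, 12 with the thresholds met in every library, 229 on lane 6 and 72 with groups by the time in the sample titles, of which 30 are members. Other scalings gave 132 and 135, lane 7 gave 137, the rule without the 24 h group 110, and leaving out single libraries 122 to 165. Removing the 5 shallowest lane samples gave 130, and removing library II of 24 h as well 135, both settings added after the data were seen.

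Of the 10 counts of called members, 6 h against 0 h (12) became 20 with DESeq2, 12 h (7) became 15, 48 h against mock (5) became 14, mock against 0 h (0) became 2 and 48 h against 12 h (3) became 7. Without the 24 h libraries in the model the last 2 were 1 and 6. With libraries I and II summed, the members called against 0 h at the 6 times were 0, 1, 1, 4, 1 and 1, with 1 at 48 h against mock, 1 at 12 h against 3 h and 0 at 48 h against 12 h. Over all genes too, the higher calls against 0 h in that fit were few, at 39, 13, 9, 128, 5 and 33. It has 2 libraries a group in place of 3, and the cause beyond this was not tested. Leaving out single libraries gave, against 0 h at the 6 times in order, 8 to 23, 3 to 13, 2 to 6, 15 to 32, 12 to 27 and 21 to 33 members. It gave 1 to 14 against the mock, 0 in the mock against 0 h, 4 to 14 at 12 h against 3 h and 0 to 26 at 48 h against 12 h.

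Libraries with the same number resembled each other across groups: 21 of 24 libraries were closest to their own number. Of the 84 correlations of their deviations, 49 were over 0.1 (median 0.142, range -0.299 to 0.484). The main tests did not include the library number, and whether it marks pairs was not tested. With the library number as a replicate block, the members called were 20 at 6 h against 0 h, 9 at 48 h against mock and 9 at 48 h against 12 h, and the other counts stayed within 1.5 times. Zm00001d049068 kept its calls in all 12 alternatives of both comparisons (log2 fold change 6.84 to 7.57 at 48 h against mock). Zm00001d023343, Zm00001d017032 and Zm00001d044686 lost theirs at 36 h in 6 of 11, 6 of 12 and 3 of 12, while the log2 fold change stayed at 5.58 to 6.61 in the first and 5.16 to 6.18 in the second. At 1 CPM, a library gives 7.70 to 38.6 reads, and the median member held 33 reads over the 3 libraries of 0 h.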
